A study of Homo sapiens with 2 samples.

Results

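The mid early intervals are stretches of the genome of U2OS cells from the authors' intersection of both nascent strand libraries of the study. These stretches are the ones placed by the authors in the mid early class of replication timing. They were taken as every name in the authors' mid early list on chromosomes 1 to 22 and X, with a name counted once, and numbered 48237 of the 161770 intervals that the 6 timing lists hold on these chromosomes (29.8%). U2OS is an osteosarcoma cell line, here unmodified (WT) in both libraries. The 2 libraries form 1 group, in which cells held at the G1/S border by a double thymidine block were collected 2 hours after release, and no other treatment, genotype or control library was analysed here. The files hold 1 intersection of both libraries, without read counts, so depth is unknown, and each error below is the spread over chromosomes of that one set, since the labels do not say that the libraries came from separate cultures.

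Replication of human chromosomes starts at many origins, which are licensed before S phase and used in an order that depends on where they lie. Neighbouring origins tend to be used at similar times, so that timing changes along the chromosome in broad domains joined by transition zones. A newly made strand begins with an RNA primer that shields it from lambda exonuclease, and short DNA that survives this enzyme therefore marks the surroundings of start sites. A mid early class lies, by its name, between domains that replicate at the start of S phase and those that replicate in its later part.

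Along the chromosomes, mid early intervals mostly bordered on the classes next to them in time. Mid early intervals had 10719 borders with an interval of another class, of which 5688 were with an early and 4705 with a mid late interval. These adjacent classes made up 97.0% of the borders. The remaining 326 borders skipped a class, with 252 to a very early, 69 to a late and 5 to a very late interval. A border here is a pair of neighbouring intervals of different class, with no limit on the distance between them. The early and mid late classes were also larger, at 25.9% and 22.3% of all intervals. The very early, late and very late classes made up 14.3%, 5.57% and 2.16%. Whether the 97.0% goes beyond these class sizes was not tested.

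The intervals covered 46.5 Mb and differed widely in width. The median was 602 bp, the quartiles were 312 and 1168 bp, and 10% of the intervals exceeded 2117.4 bp. The widest 8217 intervals, 17.0% of the class, held 50% of the covered bases. Intervals of 3 kb or more numbered 2363 (4.90%), against 4.08% of the early and 3.94% of the mid late class. At the other end, 2 intervals were a single base wide. The peak list holds only replicate 1 peaks retained in the intersection of both libraries. Such a peak overlapped 48186 of the intervals, 51 had none, and 366 (0.759%) held 2 or more. Whether the 51 had a replicate 1 peak that was not retained is unknown.

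The strength of a mid early interval is given by the fold enrichment that the authors' peak caller wrote for the replicate 1 peak sharing most bases with it. Its median was 4.86-fold, with quartiles of 3.85 and 6.61 and extremes of 1.74 and 140.4. Most of the class lay in a narrow band, since 8.70% of the intervals passed 2 times the median. Bases covered by peaks of both libraries made up a median of 60.3% of an interval, with quartiles of 39.8% and 78.8%. The listed intervals thus mostly reached beyond the bases shared by both libraries. In 10.8% of the intervals this shared part was under 25% of the width, and in 10.3% it was 90% or more. The peak of replicate 1 was cut into pieces by the peaks of replicate 2 in 8420 intervals, or 17.5% of those with a peak, and 1 interval held 15 pieces.

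Wide mid early intervals were also the more enriched ones. Intervals under 200 bp had a median of 3.92-fold (n = 5051), those of 400 to 600 bp 4.46-fold (n = 7735), those of 1200 to 2000 bp 5.83-fold (n = 6321) and those of 5 kb or more 8.92-fold (n = 674). The share cut by replicate 2 was 0% under 200 bp and 97.8% at 5 kb or more, where an interval was nearly always a chain of pieces. The shared part did not follow width in one direction. It was 72.8% under 200 bp, 51.8% at 800 to 1200 bp and 67.4% at 5 kb or more. These figures are descriptions over intervals of 1 set, and a wide peak and its fold come from the same reads.

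Mid early intervals that stood close to another interval were wider and more enriched than solitary ones. Of the intervals, 8127 had a neighbour of any class less than 500 bp away, and their medians were 856 bp and 5.43-fold. At 1 to 2 kb the medians were 624 bp and 4.85-fold (n = 9575), and at 10 to 50 kb they were 349 bp and 4.21-fold (n = 4167). The 807 intervals with no neighbour within 50 kb had 361 bp and 4.27-fold. Widths and folds were thus lower at each step up to 50 kb. The share of cut peaks had a similar course, from 25.5% under 500 bp to 4.47% beyond 50 kb. The early and mid late classes had 798 and 813 bp under 500 bp, 383 and 331 bp at 10 to 50 kb, and 340.5 and 311 bp beyond 50 kb.

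**Figure D1:**
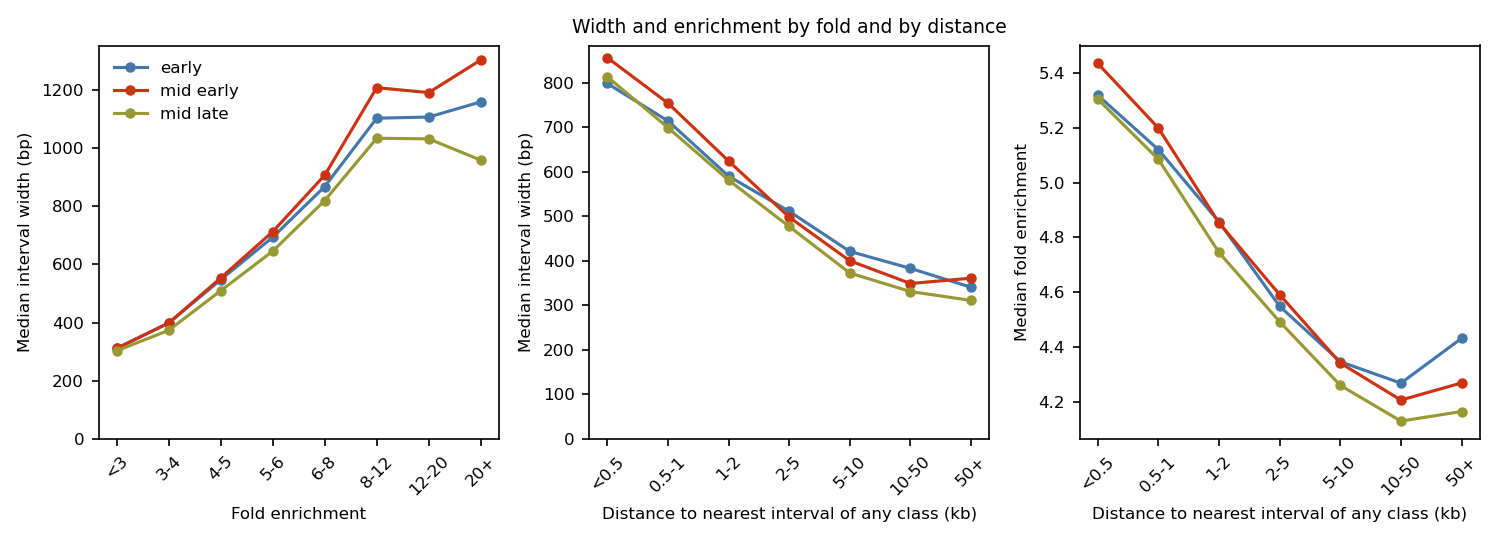
Median width (bp, from 0) by fold enrichment, and median width and median fold by distance to the nearest interval of any class (kb), for mid early intervals in red, early in blue and mid late in olive; points are medians over all intervals of a bin, without error bars, joined by lines. Mid early width goes from 312 bp under 3-fold to 1303 bp at 20-fold or more, and from 856 bp under 0.5 kb to 349 bp at 10 to 50 kb.

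The distances themselves had a sharp lower edge. Among 42870 pairs of neighbouring mid early intervals, 177 (0.413%) were less than 300 bp apart, 746 were 300 to 400 bp apart and 3401 (7.93%) were 400 to 500 bp apart. The number then fell to 2680 at 500 to 600 bp. The median was 1998.5 bp, the upper quartile 5583 bp, and 374 distances passed 100 kb. Most mid early intervals therefore lay within a few kilobases of the next one, but few were closer than 400 bp. Whether this edge comes from the peak caller, whose settings are not stated, was not tested.

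Compared with the mid late class, mid early intervals were wider, more enriched and closer together. All class comparisons hold for cells collected 2 hours after release, and no other time was compared. On each chromosome the median of a measure was taken in both classes. Its mean difference over chromosomes was tested by a two-sided sign-flip permutation test, adjusted by the Benjamini-Hochberg method over 18 comparisons (9 measures, 2 adjacent classes), of which 11 passed at 0.05. Chromosomes of one cell line do not replace cultures, and the test asks only whether a difference recurs over the genome. Median width was 592 ± 89.1 bp in the mid early and 538 ± 70.9 bp in the mid late class (mean ± SD, n = 23 chromosomes), and mid early was wider on 20 of 23 by 9.90% (log2 ratio 0.14 ± 0.023 SE, permutation test, adjusted p = 9.0e-05). The chromosome values of the classes overlapped widely, from 461 to 773 bp in the mid early and from 422 to 736 bp in the mid late class.

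Enrichment and density differed in the same direction. The median fold was 4.83 ± 0.26 against 4.69 ± 0.14 (mean ± SD, n = 23), higher in the mid early class on 19 of 23 (log2 ratio 0.042 ± 0.011 SE, permutation test, adjusted p = 0.00153). This difference did not pass where the peak had to reach a −log10 q of 5 (log2 ratio 0.019, permutation test, adjusted p = 0.0935). In uninterrupted runs of at least 5 intervals of 1 class, the median density was 19.4 ± 5.17 mid early and 13.9 ± 6.25 mid late intervals per 100 kb, a ratio of 1.48 with the mid early class denser on 22 of 23 (permutation test, adjusted p = 9.0e-05). Spacing, the gap from one mid early interval to the next, was 2348 ± 712 bp against 2952 ± 1080 bp and shorter on 20 of 23 (permutation test, adjusted p = 1.8e-04).

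Mid early peaks were also retained in the timing lists, and cut by replicate 2, more often than mid late ones. Replicate 1 peaks are numbered along the genome, and retention is the share of the numbers spanned by neighbouring same-class peaks that is present in the intersection. Retention was 74.9 ± 3.18% in the mid early and 72.6 ± 3.94% in the mid late class, a difference of 2.35 ± 0.486 points (SE), with mid early ahead on 18 of 23 (permutation test, adjusted p = 3.96e-04). Cut peaks made up 16.6 ± 4.0% against 14.4 ± 3.13%, higher on 19 of 23 (permutation test, adjusted p = 0.0017). The share cut rose with width, as given above, and was not compared at like width. The shared part of an interval was 60.2 ± 2.07% against 59.7 ± 1.92%, a difference of 0.524 ± 0.257 points (SE) that did not pass (permutation test, adjusted p = 0.0726).

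Against the early class the differences in width, fold and spacing were smaller in size than against the mid late class, and that in cut peaks was alike (2.22 points in both). Mid early intervals were wider than early ones on 18 of 23 chromosomes, at 592 ± 89.1 bp against 560 ± 88.3 bp (ratio 1.06, permutation test, adjusted p = 0.00526). Their fold was higher on 17 of 23, at 4.83 ± 0.26 against 4.75 ± 0.23 (ratio 1.02, permutation test, adjusted p = 0.0176), and spacing was shorter on 16 of 23, at 2348 ± 712 bp against 2674 ± 1160 bp (permutation test, adjusted p = 0.0176). A −log10 q of at least 5 ended the call on fold (log2 ratio 0.017, permutation test, adjusted p = 0.104), and means in place of medians that on spacing (log2 ratio -0.078, permutation test, adjusted p = 0.103). The contrast with the smallest adjusted p was in cut peaks, at 16.6 ± 4.0% against 14.4 ± 4.29%, with a difference of 2.22 ± 0.403 points (SE) and a higher share in the mid early class on 21 of 23 (permutation test, adjusted p = 3.15e-04). Within the mid early class the share cut ran from 0% under 200 bp to 97.8% at 5 kb or more. Whether this contrast is separate from that in width was not tested.

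Other measures did not separate the mid early from the early class. The density in runs was 19.4 ± 5.17 and 19.98 ± 4.999 per 100 kb (log2 ratio -0.048 ± 0.051 SE, lower on 12 of 23, permutation test, adjusted p = 0.4). Retention differed by 0.694 ± 0.49 points (SE, permutation test, adjusted p = 0.206) and the shared part by 0.030 ± 0.294 points (permutation test, adjusted p = 0.921). Similar values here rest on a p above the threshold and do not show that the classes are alike.

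**Figure D2:**
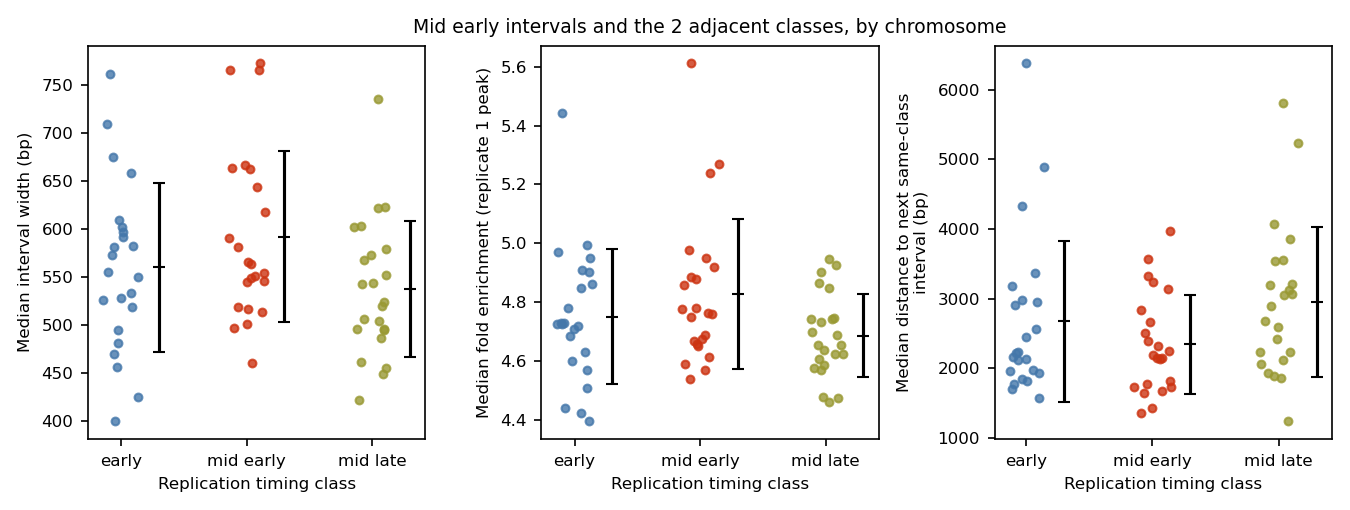
Median interval width (bp), median fold enrichment of the replicate 1 peak and median gap to the next same-class interval (bp) in the early, mid early and mid late classes; each point is 1 of 23 chromosomes and the bars show mean ± SD. The y axes do not start at 0; mid early has the highest mean width (592 bp) and fold (4.83) and the shortest mean distance (2348 bp) of the 3, with wide overlap between classes.

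The classes at both ends of the timing programme lay further off, given here as values without a test. All cells were collected 2 hours after release. Whether the differences between classes depend on this time was not tested, so they are not given as lasting properties of the classes. Over the chromosomes, median width was 511 ± 67.8 bp in the very early class, 450 ± 55.0 bp in the late class (both n = 23) and 406 ± 78.4 bp in the very late class (n = 21). Cut peaks made up 11.8 ± 3.55%, 10.5 ± 3.38% and 8.10 ± 3.98% in the same order. Density in runs was 12.98 ± 4.47, 10.8 ± 5.43 and 7.62 ± 5.41 intervals per 100 kb, the last over 19 chromosomes. The mid early class had the highest mean of the 6 classes for width, fold, cut peaks and retention, and the early class that for density in runs. The last order turned with a −log10 q of 5 or more, where the log2 ratio of density, mid early over early, was 0.15 (permutation test, adjusted p = 0.0691).

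The chromosome ends bore on the comparison with the early class. An end is counted here from the outermost interval, which may lie far from the end of the chromosome itself. Intervals within 5 Mb of the first or last interval of a chromosome made up 19.6% of the mid early class, 12.7% of the early class and 28.0% of the mid late class. In these outer stretches the median mid early width was 800 bp and the fold 5.31 (n = 9442), against 564 bp and 4.77 elsewhere (n = 38795). Early intervals had 701 bp in the outer stretches and 573 bp elsewhere, and mid late ones 743 and 478 bp. Elsewhere, then, the median width over all intervals was higher in the early than in the mid early class.

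Without these ends the early class could no longer be told from the mid early class by width, fold or distance. The width was 542 ± 103 bp against 537 ± 104 bp (log2 ratio 0.017 ± 0.029 SE, permutation test, adjusted p = 0.703), and the fold was higher in the mid early class on 10 of 23 chromosomes (log2 ratio 0.012 ± 0.011 SE, permutation test, adjusted p = 0.431). Spacing had a log2 ratio of -0.058 ± 0.057 SE (permutation test, adjusted p = 0.464). Cut peaks kept a difference of 1.07 ± 0.423 points (SE), on 16 of the 23 (permutation test, adjusted p = 0.0374). The contrast with the mid late class was larger without the ends, with a ratio of 1.14 in width on 22 of 23 and of 1.05 in fold on 23 of 23 (permutation tests, adjusted p = 3.6e-05 for both). Spacing was then 0.673 times that of the mid late class, shorter on 22 of 23 (permutation test, adjusted p = 3.6e-05).

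Width and fold move together, so each was also compared at like values of the other. Among intervals of 4- to 6-fold, mid early ones were wider than mid late ones on 20 of 23 chromosomes, at 592 ± 74.9 bp against 553 ± 68.5 bp (permutation test, adjusted p = 0.00876), though not with a −log10 q of at least 5 (log2 ratio 0.067, permutation test, adjusted p = 0.123). The same comparison with the early class, at 570 ± 74.4 bp, did not pass (ratio 1.04, wider on 14 of 23, permutation test, adjusted p = 0.0849). Among intervals of 400 to 800 bp the fold was 4.57 ± 0.18 in the mid early, 4.54 ± 0.16 in the early and 4.50 ± 0.11 in the mid late class, and neither difference passed (permutation tests, adjusted p = 0.474 and 0.0703). Differences in fold at one width were thus 0.61% and 1.49% in size.

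Comparison at one distance was added after the data were examined, because width and fold differed with distance. Its p-values were adjusted in smaller sets of their own, apart from the comparisons over all intervals. Among intervals whose nearest neighbour lay 1000 to 2000 bp away, mid early ones remained wider than mid late ones, at 609 ± 65.0 bp against 580 ± 53.3 bp (higher on 17 of 23, permutation test, adjusted p = 0.0349), and more enriched (log2 ratio 0.038 ± 0.015 SE, 17 of 23, permutation test, adjusted p = 0.0349). Against the early class neither passed (log2 ratios of 0.067 ± 0.034 SE in width and 0.020 ± 0.013 SE in fold, permutation tests, adjusted p = 0.0789 and 0.139). The difference from the mid late class in width was 4.94% in this subset, against 9.90% over all intervals.

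No step in width or enrichment passed the threshold at the borders of the class itself. Pairs of neighbouring intervals on either side of a border were compared directly, also after the data were examined and with p-values adjusted as a set of their own. Over 4705 pairs with a mid late interval, the median log2 ratio of widths averaged 0.0033 ± 0.028 (SE over 23 chromosomes, permutation test, adjusted p = 0.91) and that of fold 0.011 ± 0.010 (4683 pairs, permutation test, adjusted p = 0.395). Over 5688 pairs with an early interval the values were 0.042 ± 0.028 for width and 0.022 ± 0.014 for fold (permutation tests, adjusted p = 0.316 for both). Mid early was higher on 12 of 23 chromosomes in width and on 17 of 23 in fold. This fold value was close to the 0.023 ± 0.0085 (SE) over all intervals, also higher on 17 of 23, but had a larger error. The border ratios are those of direct neighbours, while the class medians are taken over all positions. The first is set beside the second only as a description, since the difference between them was not tested.

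**Figure D3:**
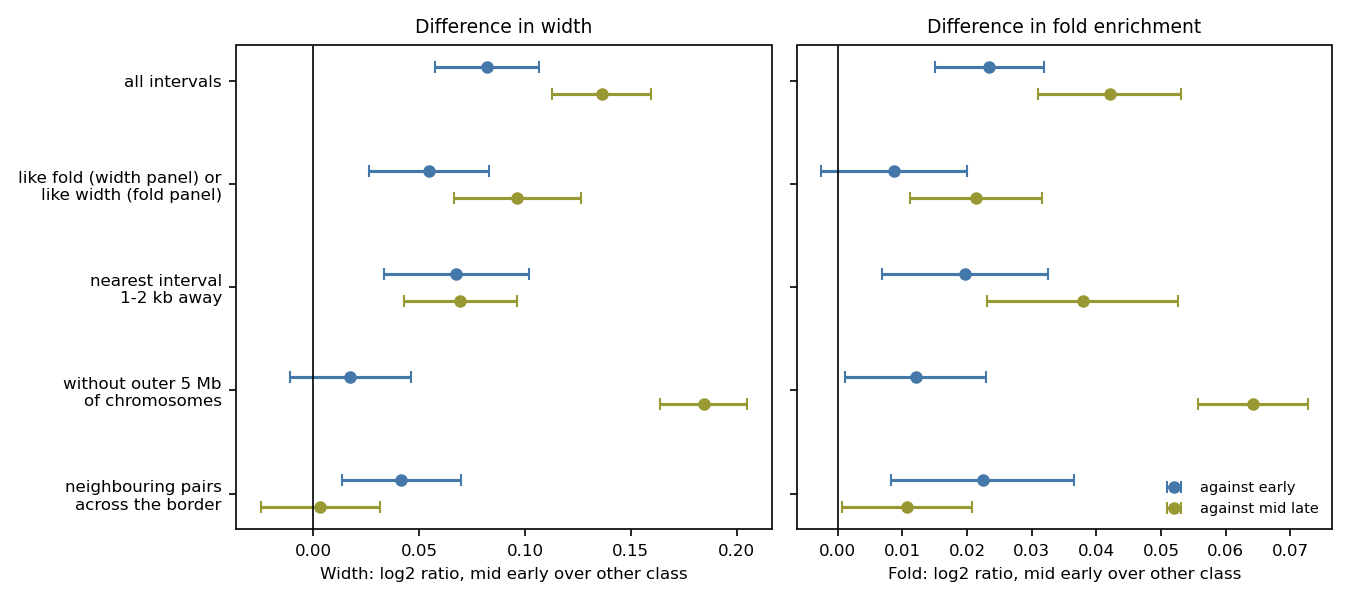
Mean log2 ratio of mid early over early (blue) and over mid late (olive) for width (left) and fold (right), with bars of 1 standard error over 23 chromosomes, for all intervals, at like fold or width, at a nearest distance of 1 to 2 kb, without the outer 5 Mb, and for neighbouring pairs across a border. The width ratio over mid late is 0.14 for all intervals, 0.18 without the chromosome ends and 0.0033 across the border; the width ratio over early is 0.017 without the ends.

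Mid early intervals in the interior of their domains were larger than those at the edge. Both neighbours were mid early for 38439 intervals (79.7%), called inside, and 9783 had at least 1 neighbour of another class. On chromosomes the inside intervals had a median width of 624 ± 84.2 bp and the border ones 493 ± 99.1 bp (mean ± SD, n = 23), wider inside on 23 of 23 by 27.9% (permutation test, adjusted p = 3.0e-05 over the 6 comparisons within the class). The fold was 4.89 ± 0.24 inside and 4.65 ± 0.29 at the border, higher inside on 22 of 23 (permutation test, adjusted p = 3.0e-05). The shared part did not differ past the threshold (0.377 ± 0.441 points SE, permutation test, adjusted p = 0.469).

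Border intervals were also the more isolated ones. Their median distance to the nearest interval was 3444 bp, against 979 bp inside. Where this distance was held at 1000 to 2000 bp, the widths were 623 ± 54.4 bp inside and 633 ± 137 bp at the border (log2 ratio 0.0015 ± 0.059 SE, n = 20 chromosomes, permutation test, adjusted p = 0.98), and the fold ratio was -0.0091 ± 0.019 on the log2 scale (permutation test, adjusted p = 0.843). In 654 runs of 20 or more mid early intervals, the outermost interval on each side had a median width of 688.5 bp, against 488 bp over all border intervals. The next 9 intervals inward had medians between 658 and 754 bp, so no step in width was seen at the edge of these large runs.

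The 2 sides of the class were not equal. Intervals next to an early one had a median width of 525 ± 103 bp and those next to a mid late one 477 ± 97.2 bp (wider on the early side on 20 of 23, permutation test, adjusted p = 4.0e-05). Fold was 4.66 ± 0.29 and 4.64 ± 0.31 (permutation test, adjusted p = 0.469), and the difference in the shared part, early side minus mid late side, was -1.96 ± 1.04 points (SE) and did not pass (permutation test, adjusted p = 0.112). The nearest interval was 2886 bp away on the early side and 3924.5 bp on the mid late side. At a nearest distance of 1000 to 2000 bp the difference in width did not pass (log2 ratio 0.084 ± 0.1 SE, wider on the early side on 7 of 17 chromosomes, permutation test, adjusted p = 0.843), and a −log10 q of at least 5 also ended the call (log2 ratio 0.13, adjusted p = 0.0558).

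Uninterrupted series of mid early intervals numbered 5367. The median run had 5 intervals over 36.0 kb, 936 runs (17.4%) were a single interval, and 81 had 50 or more. The 656 runs of 20 or more, with a median span of 118 kb, contained 45.1% of the class. In the 2785 runs of 5 or more, the median density was 21.6 intervals per 100 kb with quartiles of 11.2 and 29.9.

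A run could be a local late point, a local early point or a passage between earlier and later classes, and these positions were grouped after the data were examined, so they carry no test. Runs with an earlier class on both sides numbered 2026 and held 20096 intervals (41.7% of the class). A passage, with an earlier class on one side and a later on the other, occurred in 1881 runs with 18590 intervals. Runs with a later class on both sides numbered 1445, with 9445 intervals. Another 15 runs, with 106 intervals, began or ended a chromosome. The passages were the longest, with a median span of 47.5 kb, against 32.6 kb between earlier classes and 23.01 kb between later ones.

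Leaving aside the 15 runs at chromosome ends, intervals of runs between earlier classes were the widest and closest. Their median width over chromosomes was 627 ± 111 bp, against 579 ± 88.1 bp in passages and 534 ± 87.4 bp between later classes (mean ± SD, n = 23). The first exceeded the last on 19 of 23 chromosomes. The fold was 4.90 ± 0.29, 4.79 ± 0.27 and 4.74 ± 0.20 in the same order, with the first above the last on 16 of 23. The distance to the next mid early interval was 2190 ± 833, 2557 ± 910 and 2958 ± 1206 bp, shorter between earlier than between later classes on 18 of 23. Mid early intervals thus varied with the timing class around them, over a range of chromosome means wider than that between the mid early (592 bp) and mid late (538 bp) classes.

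**Figure D4:**
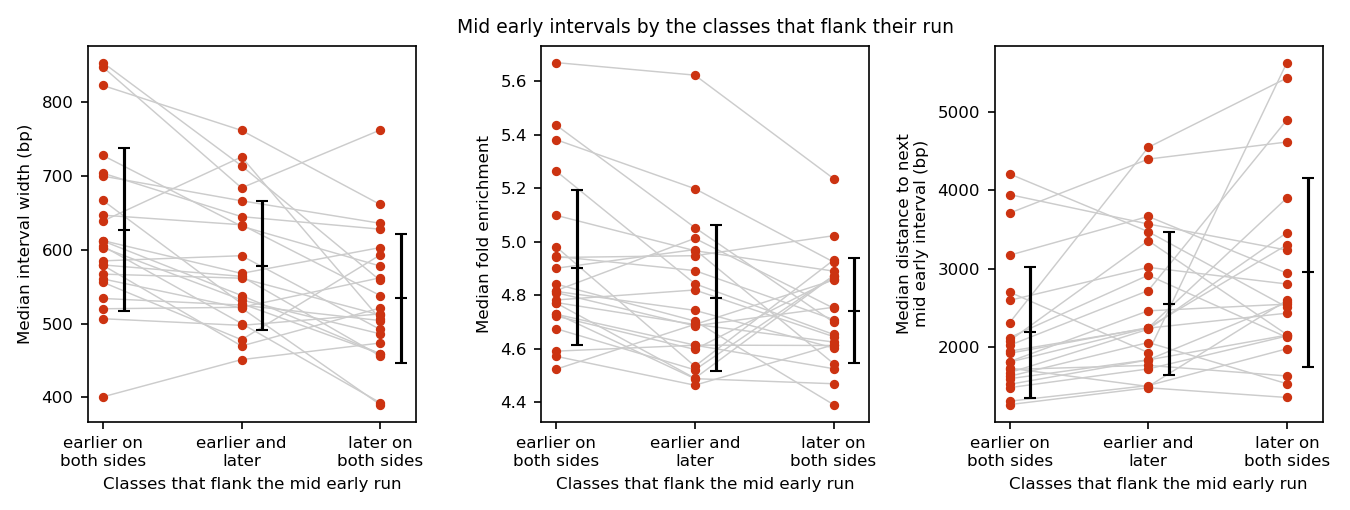
Median width (bp), median fold enrichment and median distance to the next mid early interval (bp) by chromosome, for runs flanked by earlier classes on both sides, by an earlier and a later class, and by later classes on both sides; red points are chromosomes, grey lines join values of 1 chromosome and black bars are mean ± SD (n = 23). Mean width is 627, 579 and 534 bp and mean distance 2190, 2557 and 2958 bp from left to right, with overlap between the groups.

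In runs of at least 5 intervals the middle held wider mid early intervals than the edges, unlike the ranks from the border in the runs of 20 or more given above. In passages of at least 5 intervals (1120 runs), the 20% of the span next to the earlier class had a median width of 578 bp, the middle 20% had 657 bp and the 20% next to the later class 608 bp. The fold was 4.80, 4.90 and 4.90, so it was not lower on the later side. Between earlier classes the outer 10% of a run on each side had 594.5 bp and the central part 715 bp, and between later classes 527 and 583 bp. The nearest interval was closer in the middle of passages as well, at 911 bp against 1311 bp on the earlier and 1079 bp on the later side.

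The mid early class was present on every chromosome in a similar share. It made up 29.9 ± 3.37% of the intervals of a chromosome (mean ± SD, n = 23), was the largest class on 12 and the second largest on the other 11. The highest shares were on chromosomes 16 (36.0%, 2843 intervals), 11 (33.5%) and 21 (33.3%), and the lowest on chromosomes 18 (22.6%, 707 intervals), 8 (24.0%) and 7 (25.5%). Chromosome 18 also had the narrowest and the least enriched mid early intervals, with medians of 461 bp and 4.54-fold, and the longest distance, 3968.5 bp. The gene-rich chromosomes 19, 17 and 22 stood at the opposite end, with widths of 773, 766 and 766 bp, folds of 5.61, 5.27 and 5.24, and distances of 1646.5, 1437.5 and 1359 bp. These 3 were above all other chromosomes in width and fold, but not in their share of the class, which was 29.4%, 27.9% and 29.6%.

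Mid early intervals were wider toward the first and the last interval of the chromosomes. Counted from the first interval of a chromosome, the median was 798 bp within 1 Mb, 939 bp at 1 to 2 Mb, 731 bp at 2 to 5 Mb and 574 bp at 10 to 20 Mb. Counted from the last interval it was 851, 880.5, 741.5 and 555 bp at the same distances. The mid early share of all intervals was 42.5% at 1 to 2 Mb from the first interval and 35.8% at 1 to 2 Mb from the last. Between 2 and 5 Mb the share was 28.2% and 27.2%. Distances are from the outermost interval and not from the telomere, and on some chromosomes these may lie far apart.

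**Figure D5:**
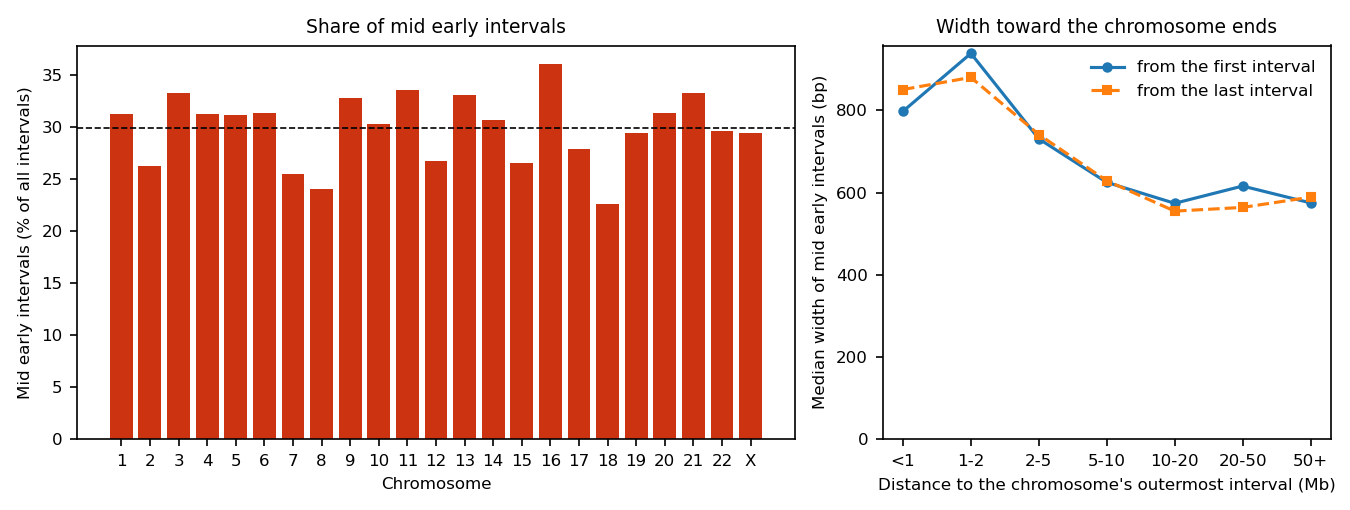
Left, bars from 0 give the percentage of all intervals of a chromosome that were mid early, with the mean of 29.9% as a dashed line; right, median width of mid early intervals (bp, from 0) by distance from the first (circles) or last (squares) interval of a chromosome (Mb). The share runs from 22.6% on chromosome 18 to 36.0% on chromosome 16, and the width is 939 and 880.5 bp at 1 to 2 Mb against 574 and 555 bp at 10 to 20 Mb.

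Mid early intervals were spread unevenly over the genome, as were all intervals. Of 2842 windows of 1 Mb with any interval, 1882 held a mid early one, and in 389 these made up more than 50% of the intervals. The fullest 264 windows, 9.29% of those with any interval, held 50% of the class. The same share of the early class lay in 8.23% of the windows, of the mid late class in 7.64% and of all intervals in 14.8%. The window with most lay on chromosome 3 from 13000001 to 14000000, with 213 mid early among 311 intervals. Next came chromosome 20 from 61000001 to 62000000, with 208 of 246 (84.6%), and chromosome 16 from 86000001 to 87000000, with 193 of 268.

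The 3 runs with most intervals were on chromosomes 12, 16 and 1 (positions are in hg19). The first spanned 113543172 to 114200745 with 155 intervals, a median width of 684 bp and a median of 5.02-fold. On chromosome 16, 132 intervals between 88018478 and 88483911 had 833 bp and 5.05-fold and a density of 28.4 per 100 kb, the highest of the 3. Both had a mid late interval on either side and so were local early points. The run on chromosome 1, from 54813609 to 55233877, held 103 intervals with 580 bp and 4.87-fold, and lay between an early and a mid late interval.

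The runs of longest span were of another kind, sparse and with large gaps. On chromosome 2, 8 intervals were spread from 92262314 to 95404659, and a single gap of 3.09 Mb made up most of that span of 3.14 Mb. Their medians were 357.5 bp and 3.24-fold, and whether reads can be placed within this gap was not examined. A run of 11 intervals on chromosome 5 from 81683696 to 83018423 had 468 bp and 4.47-fold. On chromosome X, 3 intervals from 20436642 to 21683117 had 155 bp and 3.35-fold. All 3 medians of fold and of width lay below those of the whole class.

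The 10 most enriched mid early intervals were all inside runs, as were 79.7% of the class, and mostly had a close neighbour. They are named for their fold, which is a description of the top of 1 distribution. Their widths ran from 582 to 2503 bp, 9 of 10 exceeded the median width of the class, and 9 of 10 were nearer to another interval than the class median of 1173 bp. The first, on chromosome 2 from 25054486 to 25055067, had 140-fold enrichment, and peaks of both libraries covered 95.2% of it. The second, also on chromosome 2, from 11776690 to 11777420, had 137-fold and 89.9%. Both were narrow for their strength, at 582 and 731 bp.

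The third, on chromosome 1 from 31124036 to 31125445, reached 128-fold with 44.0% of its bases shared. On chromosome 11, the interval from 70243454 to 70245812 had 106-fold and 46.7%, and was 2951 bp from its nearest neighbour, the most isolated of the 10. On chromosome 20, 61623827 to 61625191 had 105.1-fold and 68.6%. In these 3 the strong replicate 1 peak shared less of its interval with replicate 2 than in the first pair, and the list gives no fold for replicate 2.

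Chromosome 16 from 84636701 to 84639203 followed with 104.9-fold and 52.4% shared, then chromosome 1 from 11583330 to 11585300 with 93.9-fold and 94.4%. Chromosome 20 from 62572577 to 62573948 had 90.7-fold and 88.4%. The last of the 10 were chromosome 17 from 21360878 to 21362281, with 86.0-fold and 96.5%, and chromosome 19 from 39074315 to 39075739, with 85.3-fold and 92.5%. Of all 10, 6 lay in runs between earlier classes, which held 41.7% of the class, and 8 belonged to a replicate 1 peak of a single piece. In the whole class only 17.5% of the intervals with a peak had a cut one. Whether the 10 differ from the class in these counts was not tested.

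Of the 485 mid early intervals of 20-fold or more, 47 were also 3 kb or wider, which is 9.69% against 4.90% of the whole class. The widest of all, on chromosome 3 from 48672771 to 48695776, was 23006 bp and had 11.7-fold in 15 pieces. It was followed by chromosome 17 from 80004012 to 80022087, 18076 bp at 8.62-fold in 9 pieces, and chromosome 2 from 72360703 to 72378552, 17850 bp at 9.34-fold with 12 pieces. Peaks of both libraries covered 67.5%, 73.9% and 67.1% of them. These 3 were above the median fold of the class but far below its highest values.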

How the data were processed

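Nascent strand DNA of 2 libraries of U2OS cells was analysed. BWA, MACS2 and the hg19 build are named in the submitters' processing notes. Their versions and settings, and how timing classes were assigned, are not stated in the labels. The authors deposited 1 broad peak list, with a fold enrichment ratio and −log10 q per replicate 1 peak, and 6 interval lists whose deposited score is the constant 1000. The mid early list had 48276 lines and 48275 names. One name stood on 2 lines and was taken as their span, and 38 names on chromosome Y were left out of comparisons. Each interval took the replicate 1 peak sharing most bases with it (at least 1 bp). Read depth is unknown.

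Comparisons used medians on chromosomes with at least 20 intervals in both groups and a two-sided sign-flip permutation test (100000 resamples, Python 3.11.15, numpy 2.4.6, pandas 2.3.3). The test was tried only on early and mid early widths shuffled within chromosomes. Such shuffling does not keep the order of widths along a chromosome, so behaviour under that order was not tested. Named were the 10 intervals of highest fold, the 3 widest, and the 3 runs with most intervals and with longest span. Members, measures and tests were chosen with earlier results of these data known. Genes and sequence at the intervals were not analysed here.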

Additional observations from a re-analysis of the deposited data

Results flagged for a closer look

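The mid early list also held 38 intervals on chromosome Y, which the comparisons left out, of 95 on that chromosome in all 6 lists. They are listed because they lie in data outside the comparisons and number more than 3, the most that a count of 0 allows, a bar that any longer list passes. All 38 overlapped a retained replicate 1 peak, with a median of 4.94-fold (range 3.16 to 15.9), and their median width was 387.5 bp. Whether the reads behind them came from a Y chromosome was not tested, so they are not given as start sites on it.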

How the results depend on the processing

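No paired analysis was possible because the files hold 1 intersection of both libraries, so leaving out a replicate or a replicate block could not be run. Retention under the q and width minimums was not run, since dropping intervals alters it by construction, and a mean gives no other value for shares. The comparisons at 1 distance and across borders were added after the data were examined. Values are log2 ratios or, for shared bases, percentage points, with permutation tests, and the cause of each change was not tested.

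With a −log10 q of at least 5, which left 26406 mid early intervals, fold gave 0.017 against early (permutation test, adjusted p = 0.104) and 0.019 against mid late (0.0935). Width at like fold gave 0.078 against early (now passing, 0.0264) and 0.067 against mid late (0.123), and width on the early against the mid late side 0.13 (0.0558). At this minimum 5 values that passed in neither setting changed sign. They were run density (0.15), shared bases (-0.375 points) and fold at like width (-0.0022) against early, fold at like width against mid late (-0.0056), and shared bases inside against border (-1.04 points). With intervals of at least 200 bp, shared bases passed against mid late (0.856 points, 0.0338) and inside against border (1.28 points, 0.0179), and fold on the early against the mid late side turned to -0.00076. Without the outer 5 Mb, width (0.017), fold (0.012) and spacing (-0.058) no longer passed against early, and fold at like width passed against mid late (0.036). Shared bases against early turned to -0.022 points there. With means, spacing against early did not pass (-0.078, 0.103), while shared bases against mid late (0.46 points, 0.0221) and width at like fold against early (0.045, 0.0282) did.

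At a nearest distance of 1000 to 2000 bp, width (0.067) and fold (0.020) against early, width inside against border (0.0015) and width on the early against the mid late side (0.084) did not pass, and fold turned to -0.0091 inside against border and to -0.049 on the early against the mid late side. Across borders, width and fold did not pass against early (0.042 and 0.022) or mid late (0.0033 and 0.011).

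Leaving out 1 chromosome kept the direction and call in 536 values, and 10 others newly passed. Shared bases against early, which passed in no case, ran from -0.108 to 0.201 points and changed sign without chromosome 2, 4, 6, 8, 17 or 22. Fold at like width against mid late ran from 0.016 to 0.025 and passed without chromosome 4, 5, 10, 14 or 18. Shared bases against mid late ran from 0.386 to 0.678 points (passing without 8 or 21). Width at like fold against early ran from 0.041 to 0.069 (passing without 8 or 18), and shared bases on the early against the mid late side from -2.39 to -1.61 points (passing without 15). On autosomes all 24 comparisons kept direction and call, as did 8 with the highest overlapping fold and 2 with spacing to any class. Without read counts, no limit from depth can be given.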
